A study of Mus musculus with 10 samples.

Results

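Activator protein 1 (AP-1) was represented by 8 genes, the FOS genes *Fos*, *Fosb*, *Fosl1* and *Fosl2*, the JUN genes *Jun*, *Junb* and *Jund*, and *Atf3*. They were taken by gene symbol from tables of 24302 genes, and all 8 had a mean above 0. RNA of whole C57BL/6 mouse embryos at embryonic day 11.5 (E11.5) was sequenced from 3 wild type, 3 heterozygous (WWC2-/+) and 4 homozygous (WWC2-/-) embryos, 10 embryos in all. WWC2 activates the LATS kinases of the Hippo pathway, and the deletion was made with a Cre recombinase driven by the *Zp3* promoter, which is active in growing oocytes. The measurement analysed here was the mean normalized count of each gene over all 10 embryos, which combines the genotypes. A level in 1 genotype, a spread between embryos and a test of a genotype difference were therefore not analysed here, and the levels below are a description of the embryos together.

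AP-1 factors are basic leucine zipper proteins that bind DNA as dimers. JUN proteins pair with each other or with FOS proteins, whereas FOS proteins need a partner such as JUN. Many of the genes are immediate early genes, whose transcription starts within minutes of a growth factor or stress signal without new protein synthesis, and *Jund* is known for a steadier level. In the embryo *Fosl1* and *Junb* are needed for extraembryonic tissues and *Jun* for the liver and heart.

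The promoters of *Fos*, *Fosb*, *Jun*, *Junb* and *Atf3* are shown because each holds, within 110 bases before the start, a sequence related to the sites that CREB, ATF and AP-1 factors bind. They come from the RefSeq promoters of GRCm38.p6, in which 7 of the 8 genes were found (*Fosl1* was the other gene). Capitals mark TGACG or its complement CGTCA, the core of the cyclic AMP response element (CRE), TGACATCA, a variant of the AP-1 and CRE sites, and TATAAA, the TATA box. The *Fos* sequence lies on the plus strand at chr12:85473780-85473889, and the others lie on the minus strand at chr7:19310046-19310155 (*Fosb*), chr4:95052223-95052332 (*Jun*), chr8:84978749-84978858 (*Junb*) and chr1:191183334-191183443 (*Atf3*).
Fos: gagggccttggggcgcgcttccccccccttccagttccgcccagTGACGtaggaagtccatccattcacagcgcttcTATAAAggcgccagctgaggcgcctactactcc
Fosb: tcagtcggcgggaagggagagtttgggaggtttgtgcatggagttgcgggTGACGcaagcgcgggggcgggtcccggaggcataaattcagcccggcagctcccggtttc
Jun: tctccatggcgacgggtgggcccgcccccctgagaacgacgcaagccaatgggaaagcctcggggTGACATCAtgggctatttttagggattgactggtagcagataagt
Junb: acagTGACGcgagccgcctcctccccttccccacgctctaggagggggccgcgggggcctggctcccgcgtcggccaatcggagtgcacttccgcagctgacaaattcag
Atf3: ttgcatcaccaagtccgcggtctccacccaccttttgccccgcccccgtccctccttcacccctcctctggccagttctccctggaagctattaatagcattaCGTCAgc

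The stretches searched spanned 250 bases before and 50 bases after the start of each of 27025 genes, on both strands. These RefSeq starts were those of the GENCODE gene for *Fos* and *Jun*, and lay 30 bases upstream of it for *Junb*, 1210 bases upstream for *Jund*, and 6, 671 and 34706 bases downstream for *Fosb*, *Fosl2* and *Atf3*. The CRE core TGACG was found in 4 of the 7 AP-1 promoters, those of *Fos*, *Fosb*, *Junb* and *Atf3*, and in 21.0% of all promoters. In *Fos* it began 66 and 129 bases before the start, in *Fosb* 60 bases, in *Junb* 106 bases and in *Atf3* 7 bases before the start. The TGACATCA site began 45 bases before the start of *Jun* and was found in no other AP-1 promoter and in 3.76% of all promoters. TATAAA was found in *Fos* and *Junb* and in 14.2% of all promoters. In *Fos* it began 33 bases before the start. In *Junb* it began at the RefSeq start itself, which lies 30 bases upstream of the GENCODE start. The GC box GGGCGG was found in 5 of the 7 (*Fos*, *Fosb*, *Fosl2*, *Jun* and *Atf3*) and in 35.9% of all promoters. No AP-1 promoter held the AP-1 site TGACTCA or TGAGTCA, found in 5.17% of all promoters, the full CRE TGACGTCA, found in 1.88% and overlapping the CRE core, or the CArG box of serum response factor, found in 1.57%. The AP-1 promoters were rich in G and C, with a median GC content of 64.7% against 52.7% for all promoters, and 6 of the 7 lay above the latter. That of *Jund*, a stretch that lies wholly upstream of the GENCODE gene, was the exception with 46.7%. A match describes letters in these stretches and does not show that a factor bound there. Sequence more than 250 bases before the start was not searched. An absence, as of the CArG box in *Fos*, therefore holds for these stretches only.

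The JUN genes were the most abundant members. *Jund* (ENSMUSG00000071076, chromosome 8 of GRCm38, 70698949 to 70700616, 1 exon) had a mean normalized count of 5207, which is 3122 per kilobase of exon. *Jun* (ENSMUSG00000052684, chromosome 4, 95049034 to 95052222, 1 exon) had a mean normalized count of 4576, or 1435 per kilobase. The counts of the 2 genes thus differed by a factor of 1.14 and their levels per kilobase by 2.18, since *Jun* has 3189 exonic bases and *Jund* 1668. The longest-transcript setting uses the same 1668 bases for *Jund*. This length is that of GENCODE, and the RefSeq start lies 1210 bases upstream of the GENCODE start. With a gene model that reaches the RefSeq start, the level, share and ratios of *Jund* per kilobase could be lower, which was not tested. *Junb* (ENSMUSG00000052837, chromosome 8, 84974484 to 84978718), a JUN protein that often opposes the activity of JUN, had a mean normalized count of 909 and 395 per kilobase. *Jun* was 3.63 times higher than *Junb* per kilobase. Of the 19892 genes with a length and a mean above 0, 98.6% lay below *Jund*, 96.2% below *Jun* and 81.6% below *Junb* per kilobase.

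The FOS genes spanned a wide range of levels. *Fos* (ENSMUSG00000021250, chromosome 12, 85473890 to 85477273), the founding member of the group, had a mean normalized count of 863 and 367 per kilobase, with 80.3% of the genes below it. *Fosl2* (ENSMUSG00000029135, chromosome 5, 32135801 to 32157842), which encodes FRA2, had a mean normalized count of 722. With 9680 exonic bases this was 74.6 per kilobase, close to the median of 75.0 over the 19892 genes. *Fos* was thus 1.20 times higher than *Fosl2* in counts and 4.92 times higher per kilobase. *Fosb* (ENSMUSG00000003545, chromosome 7, 19302696 to 19310051), whose splice form deltaFOSB lacks part of the activation domain, had a mean normalized count of 125 and 19.97 per kilobase. *Fosl1* (ENSMUSG00000024912, chromosome 19, 5447547 to 5455946), which encodes FRA1, was the lowest member with a mean normalized count of 8.34 and 4.10 per kilobase, and 21.6% of the genes lay below it. The level of *Jund* was 761 times that of *Fosl1* per kilobase.

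*Atf3* (ENSMUSG00000026628, chromosome 1, 191170296 to 191218039), a stress-induced factor that pairs with JUN proteins and can repress transcription, lay between the groups. Its mean normalized count was 277 and its level 129 per kilobase, with 59.1% of the genes below it. Per kilobase the order was *Jund*, *Jun*, *Junb*, *Fos*, *Atf3*, *Fosl2*, *Fosb* and *Fosl1*. In counts *Fosl2* stood above *Atf3* and the other 6 genes kept their places. The neighbours *Junb* and *Fos* differed by a factor of 1.08 per kilobase, and without values per embryo it cannot be said for any neighbours whether they differed beyond the spread between embryos. The order comes from a mean that combines the genotypes, and the order within a genotype was not analysed here.

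**Figure D1:**
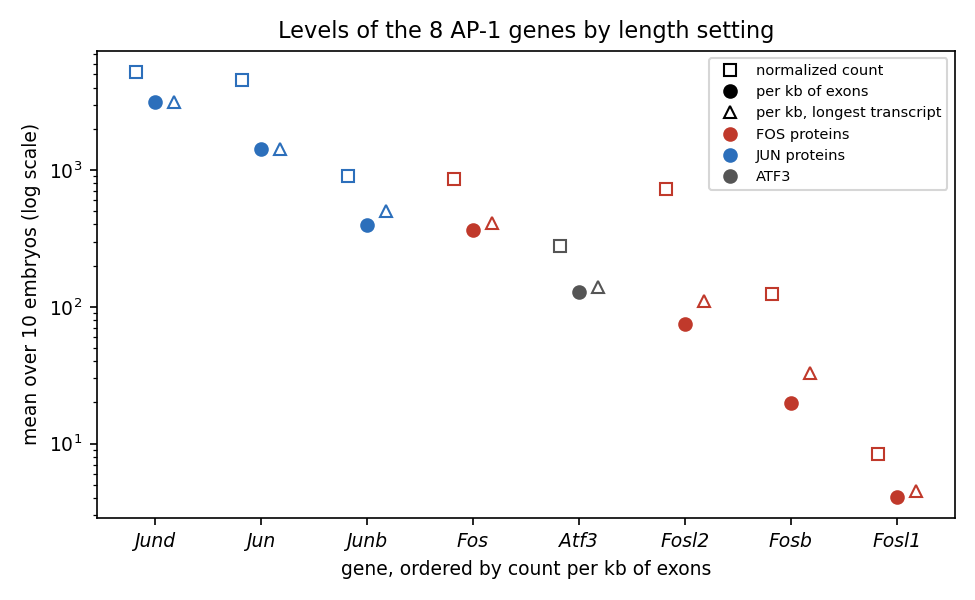
Mean over 10 embryos (y axis, log scale) of the 8 AP-1 genes (x axis) as normalized count (squares), per kilobase of all exons (circles) and per kilobase of the longest transcript (triangles), with FOS genes in red, JUN genes in blue and *Atf3* in gray. *Jund* and *Jun* were the highest at 3122 and 1435 per kilobase of exon, and *Fosl1* the lowest at 4.10. The plot has no error bars because the values are means over all embryos.

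Summed per kilobase, the 3 JUN genes came to 4952 and the 4 FOS genes to 466, a ratio of 10.6. The ratio was 9.08 with the length of the longest transcript and 6.22 in counts. *Jund* made up 56.3% of the summed level of the 8 genes, *Jun* 25.9%, *Junb* 7.12%, *Fos* 6.62%, *Atf3* 2.32%, *Fosl2* 1.34%, *Fosb* 0.360% and *Fosl1* 0.0740%. Together the 8 genes took 0.0496% of all normalized counts.

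Of 14 listed genes that encode other partners of FOS or JUN, all except *Atf4* lay below all 3 JUN genes per kilobase of exon. Per kilobase of the longest transcript *Atf2* also lay above *Junb*, by a factor of 1.14. In counts, without division by length, *Atf2* lay further above *Junb*, at 2413 against 909, and *Atf4* lay above *Jund*, at 6644 against 5207. All 14 partners listed were above 0, and 12 of them had a mean of at least 10. *Atf4*, the translationally controlled factor of the integrated stress response, was the highest at 2818 per kilobase, followed by *Atf2*, a substrate of stress kinases, at 295. The small MAF genes *Maff*, *Mafk* and *Mafg*, which lack an activation domain, lay at 215, 170 and 112 per kilobase, and *Jdp2*, a repressor that pairs with JUN, at 203. *Batf2* was the lowest at 0.408, below all 8 AP-1 genes, and the median of the list was 93.6 per kilobase.

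The listed kinases and regulators that act on AP-1 all had a mean of at least 10. The 16 MAP kinases and their activating kinases ranged from 55.9 per kilobase for *Mapk10*, the neural JNK3, to 1210 for *Mapk3*, which encodes ERK1, with a median of 457. Of the kinases that phosphorylate JUN, *Mapk8* (JNK1) lay at 172 and *Mapk9* (JNK2) at 270 per kilobase. *Srf*, whose protein binds the serum response element of *Fos*, was the highest of its list of 6 at 1033 per kilobase. *Elk4* was the lowest at 47.9. Of 6 negative regulators, *Zfp36l1*, which promotes decay of AU-rich mRNAs, was the highest at 2299 and *Rfwd2* (COP1), a ubiquitin ligase component, the lowest at 105 per kilobase. *Dusp1*, a MAP kinase phosphatase that is itself an immediate early gene, lay at 297 and *Zfp36* at 229.

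**Figure D2:**
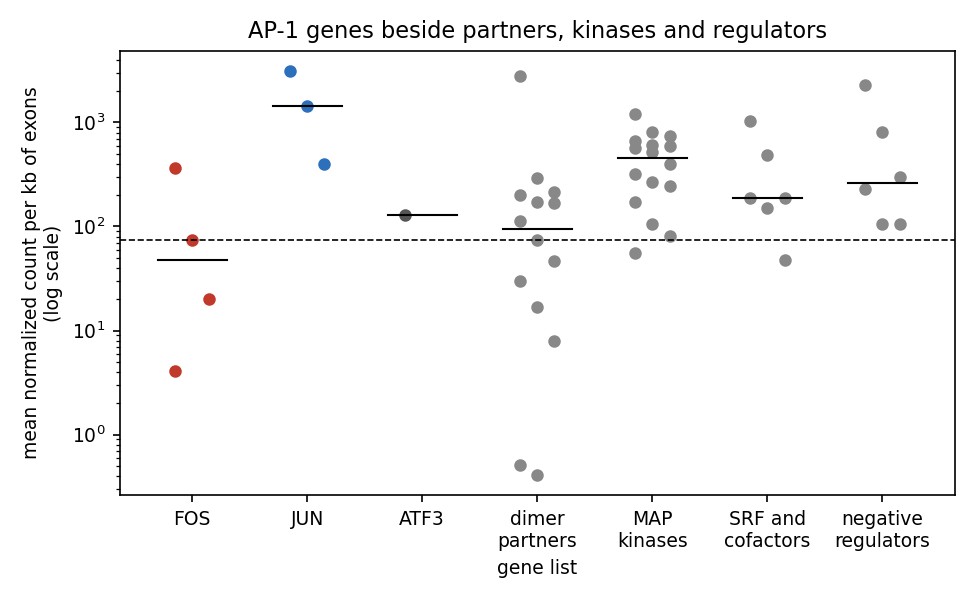
Mean normalized count per kilobase of exon over 10 embryos (y axis, log scale) for the FOS (red), JUN (blue) and ATF3 (dark gray) genes and 4 lists of partners, kinases and regulators (gray points, x axis). Each point is a gene, short lines are list medians and the dashed line is the median of all genes with a mean above 0, at 75.0. The JUN median of 1435 lies above the medians of the other lists, and the FOS median of 47.3 lies below the dashed line.

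The spans of some members, introns included, overlap those of genes on the opposite strand. The overlap between exons was not computed. *Junb* overlaps *Prdx2*, an abundant peroxiredoxin of red blood cells with 5809 per kilobase, over 351 bases. *Fosl1* overlaps *Ccdc85b*, at 214 per kilobase, over 2767 bases, which is more than the 2033 exonic bases of *Fosl1*. *Jund* and *Jun* overlap the antisense genes *Gm11175* and *Junos* over 919 and 689 bases, and *Atf3* overlaps *Gm24748* over 108 bases. The libraries kept strand information per the methods, but the strand setting of the counting was not given in the sources used here. The share of reads lost or gained through these overlaps was not tested.

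Markers of embryonic tissues and of placental trophoblast were both above 0 in the mean over all embryos. All 12 embryo markers were above a mean of 10, from *Hbb-y*, an embryonic beta-globin, at 214939 per kilobase to *Pax6*, of neural tube and eye, at 57.3. Of 6 placental trophoblast markers, all were also above 10, with *Tpbpa* at 3250 and *Gcm1* at 5.30 per kilobase, and their part in the levels of *Fosl1* and *Junb* was not tested. Which embryos or genotypes carried these transcripts was not analysed here, and a mean of this kind can come mostly from 1 genotype. *Wwc2* itself had a mean normalized count of 2117, or 154 per kilobase, over all embryos, which does not check the genotypes. In whole embryos the number of cells that express a gene and the RNA per cell cannot be told apart.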

How the data were processed

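RNA of 10 whole embryos at E11.5 was sequenced from poly(A)-selected libraries. Per the submitters' processing notes, the authors trimmed reads with Trimmomatic 0.33, aligned them to mm10 with HISAT2, counted them into genes with HTSeq and normalized and compared them with DESeq2. The deposited tables, 1 for each comparison with wild type, hold a normalized signal per gene, the mean over all embryos of counts divided by size factors, which was the same in both for all 24302 genes. Their other numeric columns hold the authors' own fold changes, standard errors, statistics and p-values of the genotype comparisons, and these were not used here. Values per embryo were not analysed here, so depth per embryo is unknown and no test between genotypes was run. Intervals that treat pooled counts or genes as independent draws were computed only to choose the alternative values listed at the end. They do not measure the spread between embryos. The means sum to 2.56e+07.

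Each mean was divided by the length of the union of exons in GENCODE M21 (GRCm38) in kilobases. A length was found for 23353 genes, 22770 by Ensembl identifier and the others by a symbol that matched 1 gene. Percentiles were taken over the 19892 of these with a mean above 0. Alternatives were the longest transcript, no division by length, the 15385 genes with a length and a mean of at least 10, and all 23353 genes with a length, genes at 0 included. All 8 members were named, and of the other lists mainly the highest and lowest genes, the rest being chosen for their known roles after their values were seen. Members and lists were chosen with earlier results of these data known. Functions for lengths, percentiles and motifs were tested on simulated data (Python 3.11.15, scipy 1.17.1).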

Additional observations from a re-analysis of the deposited data

How the results depend on the processing

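No result rests on a test, and no paired analysis was possible because the values are means over all 10 embryos. Alternative values that fell within the intervals around the main value are left out below, except where the text gives them elsewhere. Levels per kilobase of the longest transcript were 409.5 (*Fos*), 33 (*Fosb*), 110.4 (*Fosl2*), 502 (*Junb*), 139.8 (*Atf3*). Without division by length the mean counts were 863 (*Fos*), 125 (*Fosb*), 8.34 (*Fosl1*), 722 (*Fosl2*), 4576 (*Jun*), 909 (*Junb*), 5207 (*Jund*), 277 (*Atf3*). *Atf3* and *Fosl2* exchanged places in the latter. *Atf4*, below *Jund* per kilobase of exon, lay above it in counts, and also per kilobase of the longest transcript (*Jund* over *Atf4* 0.949). Against the 15385 genes with a length and a mean of at least 10, which do not include *Fosl1*, the percentiles were 74.6 (*Fos*), 16.7 (*Fosb*), 2.85 (*Fosl1*), 35.4 (*Fosl2*), 95.1 (*Jun*), 76.2 (*Junb*), 98.2 (*Jund*), 47.2 (*Atf3*). Among all 23353 genes with a length, genes at 0 included, they were 83.2 (*Fos*), 44.5 (*Fosb*), 33.2 (*Fosl1*), 57.3 (*Fosl2*), 96.8 (*Jun*), 84.3 (*Junb*), 98.8 (*Jund*), 65.2 (*Atf3*). Shares of the 8 genes in percent were 7.11 (*Fos*), 0.573 (*Fosb*), 1.92 (*Fosl2*), 24.9 (*Jun*), 8.73 (*Junb*), 54.2 (*Jund*), 2.43 (*Atf3*) with the longest transcript and 6.8 (*Fos*), 0.983 (*Fosb*), 5.69 (*Fosl2*), 36.1 (*Jun*), 41 (*Jund*), 2.19 (*Atf3*) in counts. The level of *Fosl1*, with a mean of 8.34, rests on few reads, and how they fall among the embryos was not analysed here. The planned fit between genotypes was not run, since it needed counts per embryo.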
